A study of Mus musculus with 233 samples.

Results

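The genes described here are 10 stress and apoptosis genes of the mouse striatum: Hrk, Ddit4l, Ddit4, Gadd45a, Gadd45b, Gadd45g, Cdkn1a, Bbc3, Bcl2l11 and Ccng1. They were taken by symbol from a table of 41129 gene entries, and each of the 10 matched 1 entry and passed the filter on low counts in every fit. Hrk, Ddit4l and Gadd45a were chosen by measured values, their difference between repressor and control virus in the mutant mice, so for that contrast values are given for all 10 genes as a description, with no test. The other 7 were added by their role.

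The data are bulk RNA sequencing of striatum from 120 mice, 233 libraries in 30 groups of 6 to 8. Heterozygous zQ175DN mice, in which exon 1 of one Htt allele was exchanged for human HTT exon 1 carrying an expanded CAG repeat, were compared with wild-type (WT) littermates, both sexes in each. All mice received adeno-associated virus in the striatum of both sides, so no group is without surgery and virus. The nZFP virus encodes ZFP30645, an HA-tagged zinc finger repressor aimed at expanded CAG repeats. The DBD virus encodes the same protein without its DNA-binding domain, and both are driven by the human synapsin promoter, which is active in neurons. The Estop virus carries a stuffer that encodes no protein. The age at injection and the age at collection name each paradigm: 2M_6M (4 months under virus), 2M_8M (6 months), 6M_8M (2 months), 6M_10M (4 months) and 6M_12M (6 months). Lists of 5 values keep that order. Of the mice, 113 gave 1 library from each hemisphere under different viruses and 7 gave 1 library. Levels are CPM, each gene's count per 1000000 gene counts of its library, and fold changes are log2 values with their standard error (SE).

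By way of background, these genes sit where stress signals meet growth control and cell death. Hrk (harakiri), Bbc3 (PUMA) and Bcl2l11 (BIM) encode BH3-only proteins, which bind the pro-survival members of the BCL2 family and so free BAX and BAK to open the outer mitochondrial membrane. Hrk is found mainly in neurons, where it is known from the death of neurons deprived of trophic support. Ddit4 (REDD1) and Ddit4l (REDD2) encode related inhibitors of mTORC1, the kinase complex that couples nutrients and growth factors to protein synthesis. The 3 Gadd45 genes encode small proteins that bind MAP3K4, PCNA and cyclin-dependent kinase complexes and take part in DNA repair and demethylation. Cdkn1a (p21) encodes an inhibitor of cyclin-dependent kinases, Ccng1 encodes cyclin G1, and both are textbook targets of p53, as are Bbc3 and Gadd45a. The striatum consists mostly of medium spiny neurons, the projection neurons that are most affected in Huntington's disease.

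On GRCm38, Hrk (ENSMUSG00000046607) lies on chromosome 5 from 118164648 to 118189478 on the plus strand, and Ddit4l (ENSMUSG00000046818) on chromosome 3 from 137621612 to 137628333, also on the plus strand. Gadd45a (ENSMUSG00000036390) runs on the minus strand of chromosome 6 from 67035096 to 67037457 and overlaps E230016M11Rik on the opposite strand. Cdkn1a (ENSMUSG00000023067) is on chromosome 17 from 29090976 to 29100727 and overlaps AC167363.2 on the opposite strand. The libraries kept strand information per the labels, but the sources used here do not say whether counting used it. Reads of Gadd45a and Cdkn1a may include some from their antisense neighbours. The remaining 6 genes overlap no other annotated gene.

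Because Hrk, Ddit4l and Gadd45a differed in the same contrast, the sequence upstream of their RefSeq start sites (GRCm38.p6) is shown 5′ to 3′ on the gene's strand, from chr5:118169514-118169747 (Hrk, plus strand), chr3:137623422-137623671 (Ddit4l, plus strand) and chr6:67037458-67037657 (Gadd45a, minus strand). Stretches inside annotated exons were left out. Capitals mark GC boxes (GGGCGG on either strand) and, in Ddit4l, a p53 half-site.
Hrk: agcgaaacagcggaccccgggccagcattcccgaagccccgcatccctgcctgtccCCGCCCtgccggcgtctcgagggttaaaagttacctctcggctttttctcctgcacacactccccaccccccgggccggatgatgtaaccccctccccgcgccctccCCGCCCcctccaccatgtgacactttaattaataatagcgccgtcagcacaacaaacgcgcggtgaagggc
Ddit4l: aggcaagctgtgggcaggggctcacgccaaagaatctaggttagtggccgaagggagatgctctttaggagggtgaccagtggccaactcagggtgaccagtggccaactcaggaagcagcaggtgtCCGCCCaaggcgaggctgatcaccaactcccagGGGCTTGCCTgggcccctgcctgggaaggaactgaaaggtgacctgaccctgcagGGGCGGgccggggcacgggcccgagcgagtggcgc
Gadd45a: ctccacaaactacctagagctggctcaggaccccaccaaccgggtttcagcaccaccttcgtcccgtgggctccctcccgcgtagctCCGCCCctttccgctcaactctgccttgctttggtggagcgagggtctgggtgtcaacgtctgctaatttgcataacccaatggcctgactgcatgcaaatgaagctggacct
The Cdkn1a upstream window, chr17:29090729-29090975 on the plus strand, is shown as that of a known p53 target, with p53 half-sites in capitals.
Cdkn1a: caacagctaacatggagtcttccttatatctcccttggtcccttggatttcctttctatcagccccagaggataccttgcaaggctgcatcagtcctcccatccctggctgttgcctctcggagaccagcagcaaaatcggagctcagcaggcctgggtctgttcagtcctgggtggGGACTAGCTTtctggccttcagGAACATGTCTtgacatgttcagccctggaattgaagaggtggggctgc
In Hrk the GC boxes lie at -194 to -189 and -87 to -82 relative to the start site. In Ddit4l they lie at -123 to -118 and -35 to -30, with the p53 half-site at -90 to -81 between them. Gadd45a has a GC box at -163 to -158 and a p53 half-site at -40 to -31, in the part not printed. In Cdkn1a the half-sites lie at -73 to -64 and -51 to -42.

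Across the 14 RefSeq windows of the 10 genes, the 250 bases before each start, 7 motifs were searched on both strands. The GC box and the EGR site share the letters GGGCG and can overlap. The GC box occurred in 8 of 10 genes, in 11 of their 14 windows, and in 32.7% of all 32851 windows. Some genes have several windows, so the count of genes is not comparable with the share of windows. G and C made up 54% to 81.6% of the 14 windows, against a median of 52.4% over all windows. The part of this base content in the matches was not tested. The p53 half-site occurred in Ccng1, Cdkn1a, Ddit4l and Gadd45a, in 4 of the 14 windows, and in 7.13% of all windows. The E-box CACGTG was found in Bbc3, Gadd45b and Gadd45g, in 3 of the 14 windows (6.02% of all windows). The C/EBP-ATF element TTGCATCA was found in Gadd45g, in 1 of the 14 (0.791%). The cAMP response element TGACGTCA (1.55%), the EGR site GCGTGGGCG (0.536%) and a run of 4 CAG units (0.256%) occurred in 0 of the 10. A match is a description of letters and not evidence of binding.

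A total of 7 libraries stood out. Vector reads contradicted the labels of 4 libraries. Among those of 6M_8M, WT DBD replicates 7 and 8 as labelled held 321 and 480 CPM of the repressor entry and the library labelled zQ175 nZFP replicate 5 held 8.55 CPM, and in 2M_6M the library labelled WT DBD replicate 6 held 59.2 CPM of WPRE, a viral RNA element. A further 3 stood apart in the balance between long and short transcripts: zQ175 DBD replicate 3 of 2M_6M, WT DBD replicate 2 of 6M_10M and zQ175 nZFP replicate 2 of 6M_10M. Htt reads also went against the genotype label of 2 of them. The library labelled zQ175 nZFP replicate 5 of 6M_8M held 163 CPM of Htt, where the other zQ175 nZFP libraries reached at most 106 CPM and zQ175 Estop libraries 135 CPM, and 0 CPM of the added entry Htt.HD. The library labelled WT DBD replicate 8 held 64.2 CPM of Htt and 0.145 CPM of Htt.HD, where WT libraries without label conflicts reached at most 0.0526 CPM of Htt.HD. The library labelled WT DBD replicate 7 held 113 and 0 CPM. Values are given for all libraries as labelled, and without these where they matter. Libraries held 27993215 to 61296071 gene counts. Total Htt reads, which come from both alleles, had a median of 79.7 CPM in zQ175 nZFP against 90.9 under DBD and 108 under Estop, and of 134, 126 and 144 CPM in WT, without the libraries against their labels. Htt did not pass the test for nZFP against DBD in zQ175 in any paradigm. Htt.HD had a median of 0.0719 CPM in zQ175 DBD, 0.0808 CPM in zQ175 Estop and 0 CPM in zQ175 nZFP libraries, a level of a few reads per library.

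Per transcript length, in the deposited TPM, a transcript's share of 1000000 transcripts, Ddit4 was the most abundant of the 10 genes with a median of 44.2 TPM over all libraries, followed by Ccng1 (30.1), Hrk (21.7), Ddit4l (19.6), Gadd45g (18.8), Gadd45b (16.3), Cdkn1a (13.5), Gadd45a (8.14), Bbc3 (6.59) and Bcl2l11 (1.32). The neighbours in this order overlapped in their ranges over libraries: Hrk spanned 7.45 to 34.7 TPM and Ddit4l 3.99 to 47.8 TPM. Ddit4l had the widest range of group medians, from 4.88 to 34.2 TPM, while those of Ccng1 lay between 25.4 and 33.4 TPM.

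Hrk was at a similar level in all WT groups and far lower in zQ175 mice given a control virus. In the 15 WT groups the median lay between 59.8 and 78.1 CPM. In 2M_6M, WT Estop libraries ranged from 66.7 to 82.7 with a median of 70.1 CPM, and zQ175 Estop libraries from 31.9 to 38.0 with a median of 33.9 CPM. The corresponding medians in the other paradigms were 68.2, 69.5, 68.8 and 77.3 CPM in WT Estop against 27.6, 27.6, 26.0 and 29.7 CPM in zQ175 Estop. The highest zQ175 Estop library of each paradigm stood below the lowest WT Estop library. How often the groups of other genes do not overlap was not counted, here or in the comparisons below. Neither Estop group entered the contrast that singled out Hrk, although most zQ175 Estop libraries came from mice whose other hemisphere did. The log2 fold change of zQ175 Estop against WT Estop was -1.06 (SE 0.07), -1.36 (0.10), -1.26 (0.14), -1.42 (0.06) and -1.43 (0.09), with edgeR adjusted p from 4.7e-22 to 8.2e-08. Over all genes and the 5 paradigms, 18.3% of tests passed for this comparison and 8.89% were lower in zQ175. In 2M_6M the fitted zQ175 level was 0.479 of the WT level.

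Ddit4l showed the same separation with a larger difference. In 2M_6M its CPM was 30.9, 36.5 and 55.6 (lowest, median and highest) in WT Estop and 7.43, 8.22 and 8.76 in zQ175 Estop. In 6M_12M the values were 32.0, 34.0 and 45.4 in WT Estop and 4.92, 6.34 and 9.15 in zQ175 Estop. The groups did not overlap in any of the 5 paradigms, and the share of all genes without overlap was not counted. The log2 fold change was -2.23 (SE 0.10), -2.34 (0.12), -2.06 (0.26), -2.36 (0.09) and -2.44 (0.11), with edgeR adjusted p from 1e-24 to 5.4e-07. Under DBD, whose zQ175 libraries took part in the choice, the corresponding values without a test were -2.12, -2.21, -1.91, -2.32 and -2.26 for Ddit4l and -1.14, -1.30, -1.17, -1.49 and -1.58 for Hrk.

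**Figure D1:**
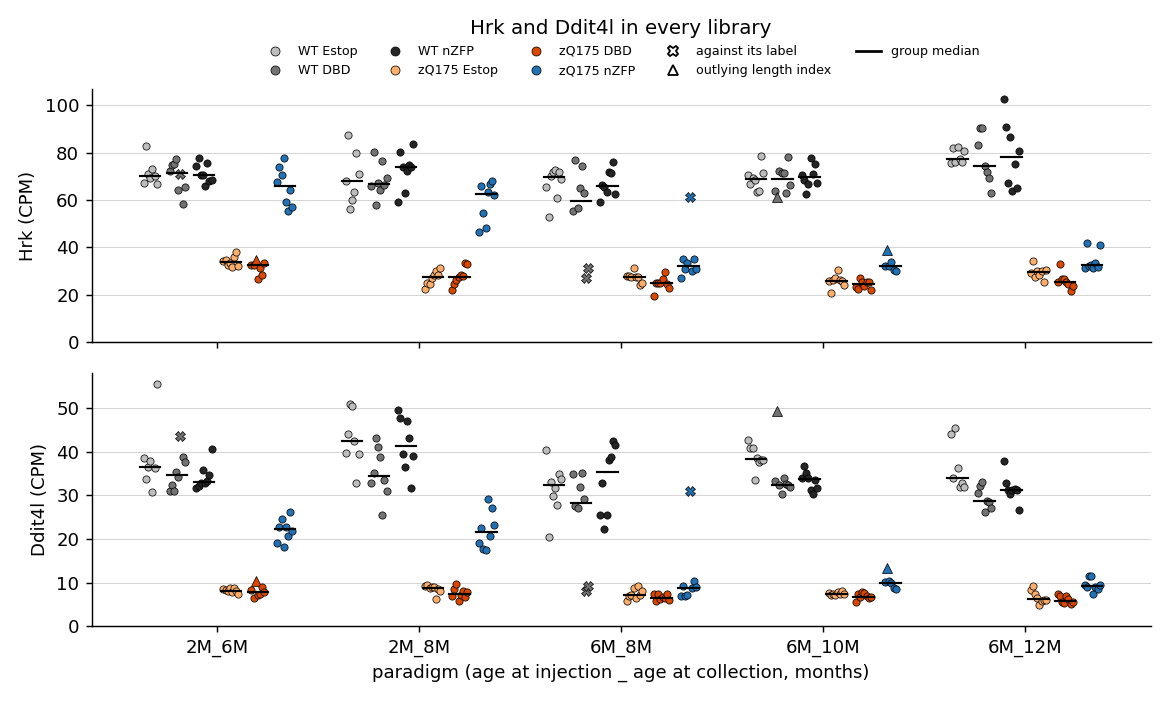
CPM of Hrk and Ddit4l in each of the 233 libraries, by paradigm, genotype and virus; bars are group medians, crosses are libraries that went against their labels and triangles are libraries that stood apart in transcript length balance. zQ175 nZFP libraries lie close to WT for Hrk in 2M_6M (median 66.0 CPM) and close to the zQ175 controls in the 6-month injections (median 32.1 CPM in 6M_10M).

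Under nZFP, Hrk in zQ175 mice was near the WT level after injection at 2 months and well below it after injection at 6 months. In 2M_6M, zQ175 nZFP libraries were at 55.5, 66.0 and 77.6 CPM (lowest, median, highest) and zQ175 DBD libraries at 26.6, 32.5 and 34.9 CPM. In 2M_8M the values were 46.6, 62.6 and 67.9 CPM under nZFP and 22.0, 27.7 and 33.5 CPM under DBD. All nZFP libraries of these paradigms were above all DBD libraries. In 6M_10M they were at 30.0, 32.1 and 39.1 CPM against 22.2, 24.6 and 27.0 CPM, which did not overlap either, although the nZFP libraries were all below the lowest WT nZFP library, at 62.6 CPM. In 6M_12M, 31.4, 32.5 and 42.0 CPM under nZFP overlapped with 21.8, 25.4 and 33.0 CPM under DBD. In 6M_8M the nZFP values were 27.0, 32.3 and 61.4 CPM, the highest being the library labelled replicate 5, whose repressor and Htt reads both went against its label, and 27.0, 30.9 and 35.2 CPM without it, against 19.5, 25.1 and 29.7 CPM under DBD.

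The log2 difference of Hrk between nZFP and DBD in zQ175, the contrast behind its choice, was 1.05 (SE 0.07), 1.10 (0.10), 0.51 (0.14), 0.43 (0.07) and 0.42 (0.09). Without the 3 libraries of 6M_8M that went against their labels, the third value was 0.35 (0.07). Against Estop, which shares the nZFP libraries with this contrast, Hrk differed by 0.94, 1.14, 0.36, 0.36 and 0.23, and by 0.22 (0.07) in 6M_8M without the libraries against their labels. The remaining log2 difference between zQ175 nZFP and WT nZFP was -0.12 (0.06), -0.28 (0.10), -0.92 (0.14), -1.09 (0.07) and -1.20 (0.09), and -1.07 (0.08) in 6M_8M without the libraries against their labels. Over all genes, 23.2%, 7.06%, 0.113%, 0.972% and 1.25% passed the test for nZFP against DBD in zQ175. Whether the paradigms differ from each other was not tested.

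Ddit4l also differed under nZFP, and stayed short of the WT level in all 5 paradigms. In 2M_6M, zQ175 nZFP libraries were at 18.2, 22.3 and 26.1 CPM and zQ175 DBD libraries at 6.59, 7.80 and 10.3 CPM, while WT nZFP libraries were at 31.8, 33.0 and 40.8 CPM. These 3 groups did not overlap. In 2M_8M the values were 17.5, 21.6 and 29.1 CPM under nZFP against 5.70, 7.53 and 9.65 CPM under DBD. In 6M_10M they were 8.45, 10.0 and 13.5 CPM against 5.65, 6.84 and 7.84 CPM, and in 6M_12M 7.32, 9.30 and 11.6 CPM against 5.12, 5.89 and 7.39 CPM, with an overlap in the last. In 6M_8M the nZFP libraries were at 6.87, 8.76 and 10.4 CPM without the library that lacked repressor reads, which itself was at 31.1 CPM, and the DBD libraries at 5.91, 6.58 and 7.45 CPM.

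The log2 difference of Ddit4l between nZFP and DBD in zQ175 was 1.43 (SE 0.10), 1.55 (0.12), 0.72 (0.25), 0.55 (0.09) and 0.63 (0.10). The 6M_8M value was 0.30 (0.13) without the libraries against their labels, and the 6M_10M value 0.45 (0.06) without the libraries of unusual length balance. Against Estop the values were 1.42, 1.39, 0.56, 0.43 and 0.48, and 0.16 (0.13) in 6M_8M without the libraries against their labels. The remaining difference from WT nZFP was -0.64 (0.09), -0.91 (0.11), -1.59 (0.25), -1.71 (0.09) and -1.74 (0.10), and -2.0 (0.13) in 6M_8M without the libraries against their labels.

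In the 2 hemispheres of the same mouse, the difference went the same way in nearly all zQ175 mice. Without libraries against their labels, Hrk was higher in the nZFP hemisphere than in the DBD hemisphere in 17 of 17 zQ175 mice, with a median log2 difference of 0.514, and higher than in the Estop hemisphere in 18 of 19, with a median of 0.475. Ddit4l gave 17 of 17 (median 0.743) and 18 of 19 (median 0.484). The largest differences were those of 2M_6M and 2M_8M, where the 15 zQ175 mice had Hrk differences of 0.773 to 1.25. In WT mice, Hrk was higher with nZFP than with DBD in 13 of 17 (median 0.0619) and higher than with Estop in 9 of 18 (median -0.00131). Ddit4l in WT was higher than with DBD in 11 of 17 and higher than with Estop in 3 of 18 (median -0.199). These pairs are the same libraries as above and are given as a description.

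**Figure D2:**
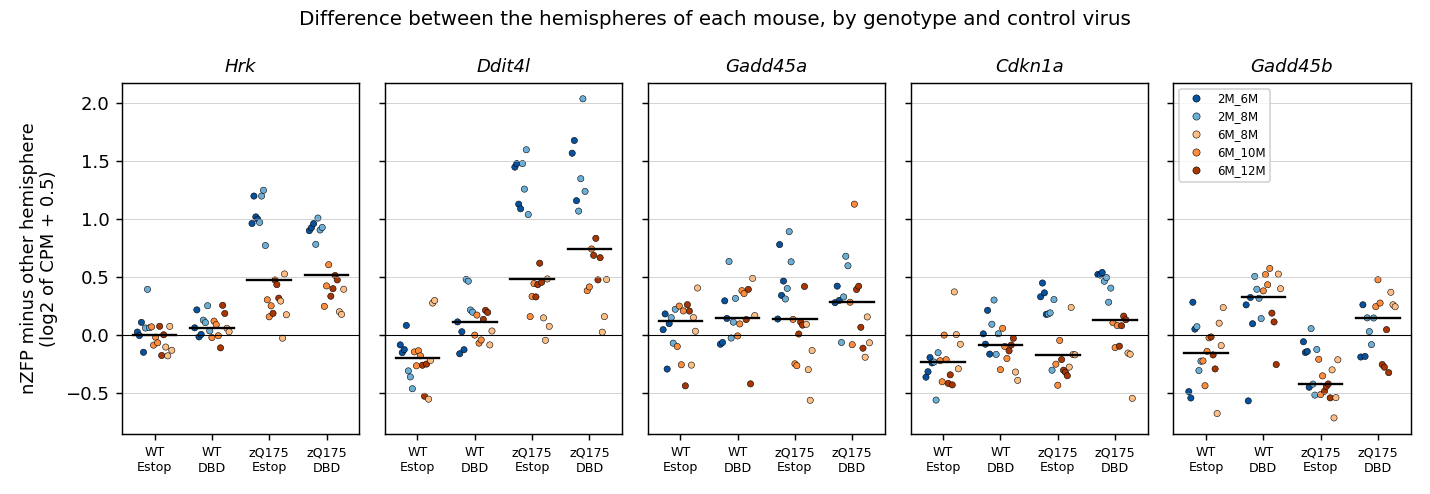
Difference in log2(CPM + 0.5) between the nZFP hemisphere and the other hemisphere of the same mouse for Hrk, Ddit4l, Gadd45a, Cdkn1a and Gadd45b, by genotype and control virus, without libraries that went against their labels. Each point is 1 mouse. For Hrk, 35 of the 36 zQ175 points lie above 0, while WT points scatter on both sides; for Gadd45b, 18 of 19 zQ175 mice lie below 0 against Estop.

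In WT mice, none of the 10 genes passed the test for nZFP against DBD. Hrk was at 65.8, 70.7 and 77.5 CPM in WT nZFP libraries of 2M_6M and at 58.4, 71.5 and 77.3 CPM in WT DBD libraries, which overlapped, as did the groups of all 10 genes in every paradigm. How often the groups of other genes overlap was not counted. The log2 difference of Hrk was 0.03 (SE 0.06), 0.08 (0.10), 0.25 (0.14), 0.03 (0.06) and 0.04 (0.09), and that of Ddit4l -0.05 (0.09), 0.24 (0.11), 0.40 (0.24), -0.05 (0.08) and 0.11 (0.10). Without the libraries labelled WT DBD that held repressor reads, replicate 8 of which also held more Htt.HD than other WT libraries, and which had 27.1 and 31.5 CPM of Hrk and 8.16 and 9.15 CPM of Ddit4l, the 6M_8M values were 0.04 (0.08) for Hrk and 0.12 (0.13) for Ddit4l. Of the 50 combinations of gene and paradigm, edgeR called 0 and DESeq2 0, with 6 at an unadjusted p under 0.05. Over all genes 0.911% of such combinations were called. Against Estop in WT, edgeR and DESeq2 also called 0 of 50 (0.53% over all genes), with 6 at an unadjusted p under 0.05, all lower. Among these, Ddit4l in 6M_10M had a log2 difference of -0.22 (0.08, adjusted p 0.32), which was -0.22 (0.05, adjusted p 0.0067) without the libraries of unusual length balance. With the mouse as a block, Cdkn1a in 6M_12M passed in this comparison at -0.32 (adjusted p = 0.045).

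The differences in Hrk and Ddit4l moved together with markers of medium spiny neurons. Of the 8 markers, among them Drd1, Drd2, Penk and Ppp1r1b, 35 of 40 combinations of marker and paradigm were lower in zQ175 Estop than in WT Estop and 0 were higher, with a median log2 fold change of -0.76. For this genotype comparison, 18.3% of combinations over all genes passed and 8.89% were lower, which also applies to the other cell types below. For nZFP against DBD in zQ175, 23 of 40 were higher and 1 lower (median 0.40), where 2.84% of all genes were called higher and 6.49% in either direction. Their summed level in 2M_6M was 7780 to 10250 CPM in WT DBD, 4341 to 5901 CPM in zQ175 DBD and 6512 to 7753 CPM in zQ175 nZFP libraries. In 6M_12M it was 7278 to 11290, 4558 to 5478 and 5882 to 6531 CPM. In bulk tissue, fewer cells of a type and less RNA per cell cannot be told apart, and the part of cell composition in the results on Hrk and Ddit4l was not tested. Astrocyte markers had 0 of 30 and oligodendrocyte markers 0 of 30 calls for nZFP against DBD in zQ175, microglia markers 3 of 30 (all higher), endothelial markers 0 of 25, ependymal markers 3 of 16 (all lower), choroid plexus markers 1 of 12 (lower) and cortical neuron markers 3 of 19 (1 higher). For genotype under Estop, cortical neuron markers had 6 of 19 combinations higher and 4 lower (median 0.53), while their summed level was lower in zQ175, with WT and zQ175 Estop medians of 1257 and 905 CPM in 2M_6M and 1216 and 899 CPM in 6M_12M. In 2M_6M that sum had a median of 922 CPM in zQ175 DBD and 1210 CPM in zQ175 nZFP libraries. For the same genotype comparison, 4 of 30 astrocyte, 4 of 30 microglia and 2 of 25 endothelial combinations passed, all lower, beside 3 higher and 5 lower of 30 for oligodendrocyte, 4 higher of 12 for choroid plexus and 0 of 16 for ependymal markers. The part of these cell types in the results was not tested. Summed choroid plexus markers varied most between libraries, from 8.88 to 669 CPM.

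Genes were ranked by likeness over the 30 group means of log2 CPM, leaving out low mean levels and predicted-gene or clone names. Those most like Hrk were Abhd11os (Pearson r = 0.982), Ddit4l (0.979) and Wnt8b (0.979). Those most like Ddit4l were Rnf144a (0.982), Penk, the enkephalin precursor of indirect pathway neurons (0.982), and Drd1, the dopamine receptor of direct pathway neurons (0.980). Gadd45a was most like Prkd1 (0.944), Ppp4r4 (0.930) and Dok4 (0.930). These correlations describe 30 groups that share libraries from the same mice, and the genotype groups separate in most of them.

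Gadd45a followed the genotype but was less regular under nZFP. In 2M_8M its CPM was 4.72, 5.17 and 6.82 in WT Estop and 3.23, 3.90 and 4.45 in zQ175 Estop, without overlap, and in 6M_12M 4.19, 5.35 and 6.18 against 2.43, 3.5 and 5.57, with overlap. The log2 fold change under Estop was -0.57 (SE 0.12), -0.49 (0.11), -0.31 (0.13), -0.46 (0.14) and -0.50 (0.13), with edgeR adjusted p of 0.00042, 0.0012, 0.11, 0.015 and 0.0057. It passed the test in 4 paradigms, all but 6M_8M. Under nZFP, zQ175 libraries of 2M_8M were at 4.55, 5.53 and 7.37 CPM against 3.00, 3.37 and 4.78 CPM under DBD. The difference between nZFP and DBD in zQ175, described without a test, was 0.24 (0.12), 0.69 (0.11), -0.22 (0.13), 0.21 (0.16) and 0.13 (0.13). In 2M_8M the zQ175 libraries also differed in length balance, with group medians of 0.375 under DBD and -0.098 under nZFP. Within mice of 2M_8M, Gadd45a was higher with nZFP than with DBD in 3 of 4 zQ175 mice, with log2 differences from -0.0644 to 0.68.

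The Gadd45a difference of 6M_10M depended on libraries of unusual length balance. Replicate 2 of zQ175 nZFP held 8.15 CPM of Gadd45a in a group with a median of 4.09, and without the outlying libraries the difference was -0.03 (SE 0.10). In 2M_6M the difference was 0.41 (0.11) without zQ175 DBD replicate 3, which held 6.40 CPM. Those 3 libraries were each the highest of their group for both Gadd45a and Gadd45g. The difference in 2M_6M was positive with and without the outlying library there. It was positive in 2M_8M and 6M_12M and negative in 6M_8M, paradigms that hold none of those 3 libraries. Within mice, Gadd45a was higher with nZFP than with DBD in 12 of 17 zQ175 mice (median 0.283) and in 12 of 17 WT mice.

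Gadd45b and Gadd45g, known as early response genes, varied between paradigms more than between genotypes. Gadd45g had group medians from 4.52 to 15.2 CPM, with zQ175 Estop at 8.40, 4.52, 11.3, 8.74 and 4.93 CPM and WT Estop at 10.7, 5.14, 15.2, 14.1 and 6.88 CPM. Its log2 fold change under Estop was -0.39 (SE 0.22), -0.31 (0.25), -0.38 (0.18), -0.31 (0.23) and -0.40 (0.21), and none passed the test. Under DBD it passed in 6M_10M at -0.69 (0.23, edgeR adjusted p = 0.024), but there WT DBD replicate 2 held 33.0 CPM in a group with a median of 9.83, and without the outlying libraries the value was -0.30 (0.16, adjusted p = 0.16). In 2M_6M, where zQ175 DBD replicate 3 held 25.4 CPM, the value was -0.17 (0.22) and -0.51 (0.19, adjusted p = 0.046) without it.

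Gadd45b was lower under DBD than under Estop in all 5 paradigms in both genotypes, although 1 of these 10 differences passed the test. In 2M_6M it was at 11.7, 13.6 and 16.6 CPM in zQ175 Estop, 7.70, 9.16 and 13.4 CPM in zQ175 DBD and 8.48, 10.4 and 13.4 CPM in zQ175 nZFP libraries. DBD minus Estop was -0.45 (SE 0.14), -0.24 (0.16), -0.29 (0.14), -0.53 (0.15) and -0.40 (0.19) in zQ175, of which the first passed (edgeR adjusted p = 0.048). In WT it was -0.52 (0.14), -0.19 (0.17), -0.17 (0.14), -0.41 (0.15) and -0.31 (0.21), and none passed. The call in zQ175 was lost under 7 of the alternative settings, at adjusted p from 0.0502 to 0.43, while without the outlying libraries the 6M_10M values passed at -0.53 (adjusted p = 0.014) in zQ175 and -0.58 (adjusted p = 0.0037) in WT. With the mouse as a block, 6M_12M in zQ175 passed at -0.49 (adjusted p = 0.010) and 6M_10M in WT at -0.50 (adjusted p = 0.030), as did Cdkn1a for the same comparison in 6M_12M of zQ175 at -0.30 (adjusted p = 0.027). Within mice, Gadd45b was lower with nZFP than with Estop in 18 of 19 zQ175 mice (median -0.423) and in 13 of 18 WT mice (median -0.156). Genotype under Estop called it in 0 of 5 paradigms.

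**Figure D3:**
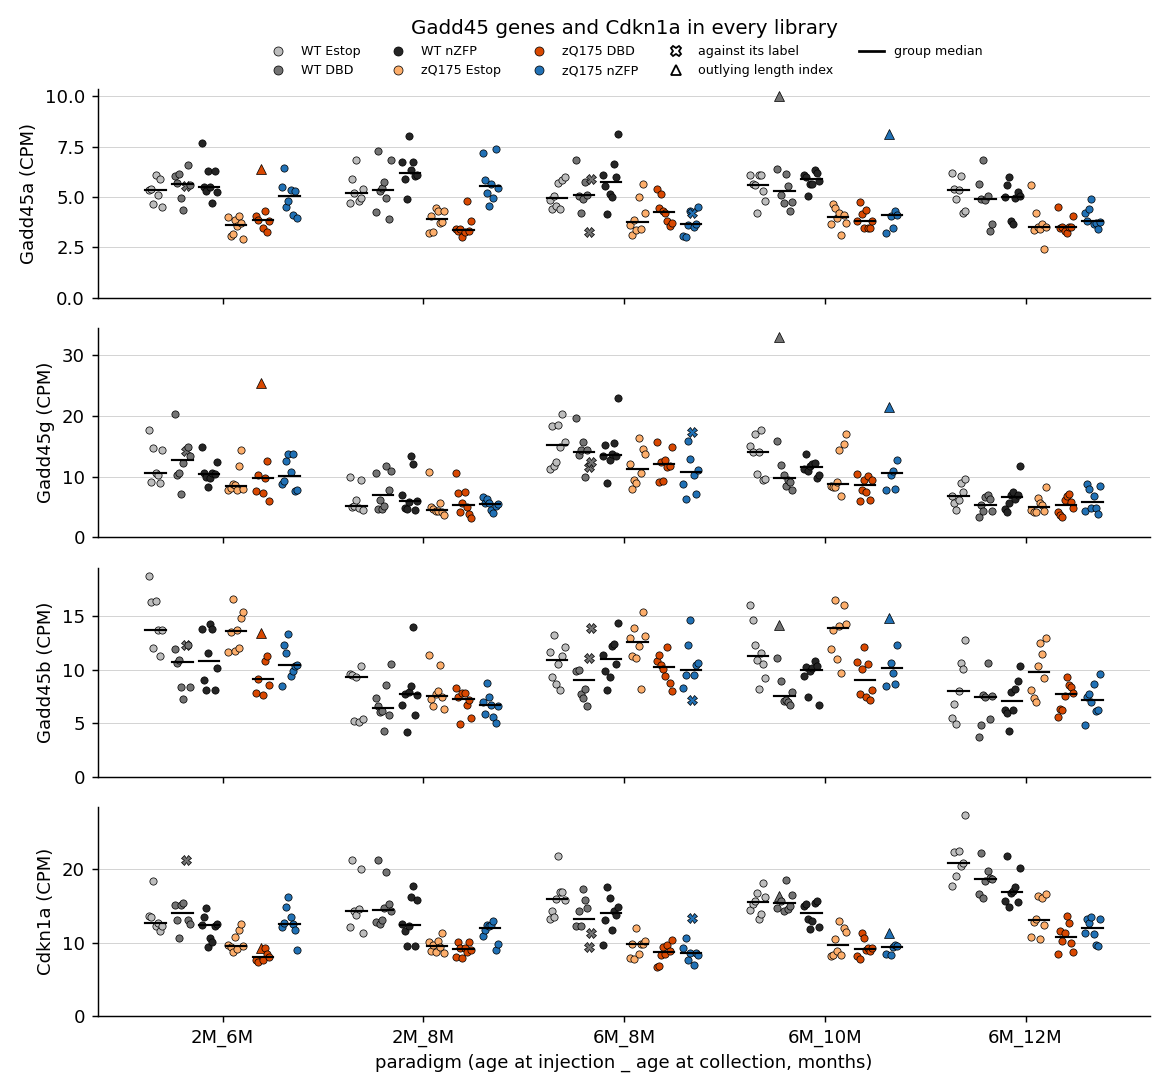
CPM of the Gadd45 genes and Cdkn1a in each library, by paradigm, genotype and virus, with group medians as bars, crosses for libraries against their labels and triangles for libraries of unusual length balance. Cdkn1a separates the genotypes under both control viruses, and the triangles mark the highest Gadd45a and Gadd45g values of their groups.

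Cdkn1a, the cell cycle inhibitor p21, was lower in zQ175 than in WT under both control viruses in every paradigm. In 2M_8M its CPM was 11.3, 14.2 and 21.2 in WT Estop and 8.56, 9.53 and 11.2 in zQ175 Estop. In 6M_12M it was 17.7, 20.7 and 27.3 against 10.5, 13.0 and 16.6. The Estop groups did not overlap in 4 paradigms and did in 2M_6M, and the share of all genes without overlap was not counted. The log2 fold change under Estop was -0.41 (SE 0.12), -0.68 (0.12), -0.74 (0.12), -0.63 (0.08) and -0.67 (0.11), with edgeR adjusted p from 8.6e-09 to 0.01. Under DBD it was -0.80 (0.12), -0.77 (0.12), -0.63 (0.12), -0.76 (0.08) and -0.79 (0.11), all past the threshold, and -0.73 (0.12) in 6M_8M without the libraries against their labels.

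Under nZFP, the Cdkn1a difference between genotypes passed the test after injection at 6 months and not after injection at 2 months. In 2M_6M, zQ175 nZFP libraries were at 8.96, 12.6 and 16.2 CPM and WT nZFP libraries at 9.44, 12.4 and 14.6 CPM, while zQ175 DBD libraries were at 7.42, 7.98 and 9.25 CPM. The genotype difference under nZFP was 0.10 (SE 0.11, edgeR adjusted p = 0.93), -0.18 (0.12, 0.38), -0.60 (0.12, 0.00060), -0.56 (0.08, 2.1e-06) and -0.57 (0.11, 8.2e-05). The interaction, which is nZFP minus DBD in zQ175 less the same in WT, was 0.90 (0.17) in 2M_6M (adjusted p = 0.00068) and 0.59 (0.16) in 2M_8M (adjusted p = 0.048). It was 0.03, 0.20 and 0.22 in the remaining paradigms, where it did not pass. Differences between paradigms were not tested. Both parts contributed to the 2M_6M value: nZFP minus DBD was 0.62 (0.12) in zQ175 and -0.28 (0.11) in WT. The library labelled WT DBD replicate 6, with little WPRE, held 21.2 CPM of Cdkn1a, the highest of its group, and without it the 2M_6M interaction was 0.80 (0.15, adjusted p = 0.0014). In 2M_8M the adjusted p was 0.067 with no filter on low counts and 0.080 without the sex covariate. The length balance of the libraries also differed between nZFP and DBD in 2M_8M. The interaction was not fitted with the mouse as a block.

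Within mice, Cdkn1a was higher with nZFP than with DBD in 3 of 3 zQ175 mice of 2M_6M (0.518 to 0.540) and 4 of 4 of 2M_8M (0.283 to 0.496), and in 5 of the 10 of the later injections. Against Estop it was lower with nZFP in 16 of 18 WT mice (median -0.237). In zQ175 mice Cdkn1a was higher with nZFP than with Estop in 4 of 4, 3 of 4, 1 of 4, 0 of 3 and 0 of 4 by paradigm. Over all paradigms that was 8 of 19 (median -0.169). For nZFP against Estop in zQ175, a comparison that shares the nZFP libraries, the 2M_6M value was 0.33 (SE 0.11, edgeR adjusted p = 0.070). It passed without the libraries against their labels (adjusted p = 0.037) and, at 0.36, with the mouse as a block (adjusted p = 0.037). In this comparison edgeR called 0 of the 35 combinations of the 7 testable genes and a paradigm, DESeq2 called 1, and 5 had an unadjusted p under 0.05. Over all genes 3% were called. With the mouse as a block 4 passed, the others being Cdkn1a in 6M_12M at -0.27 (adjusted p = 0.029), Gadd45b in 6M_12M at -0.60 (adjusted p = 0.00084) and Gadd45g in 2M_8M at 0.38 (adjusted p = 0.023). The share over all genes with the mouse as a block is not given here.

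**Figure D4:**
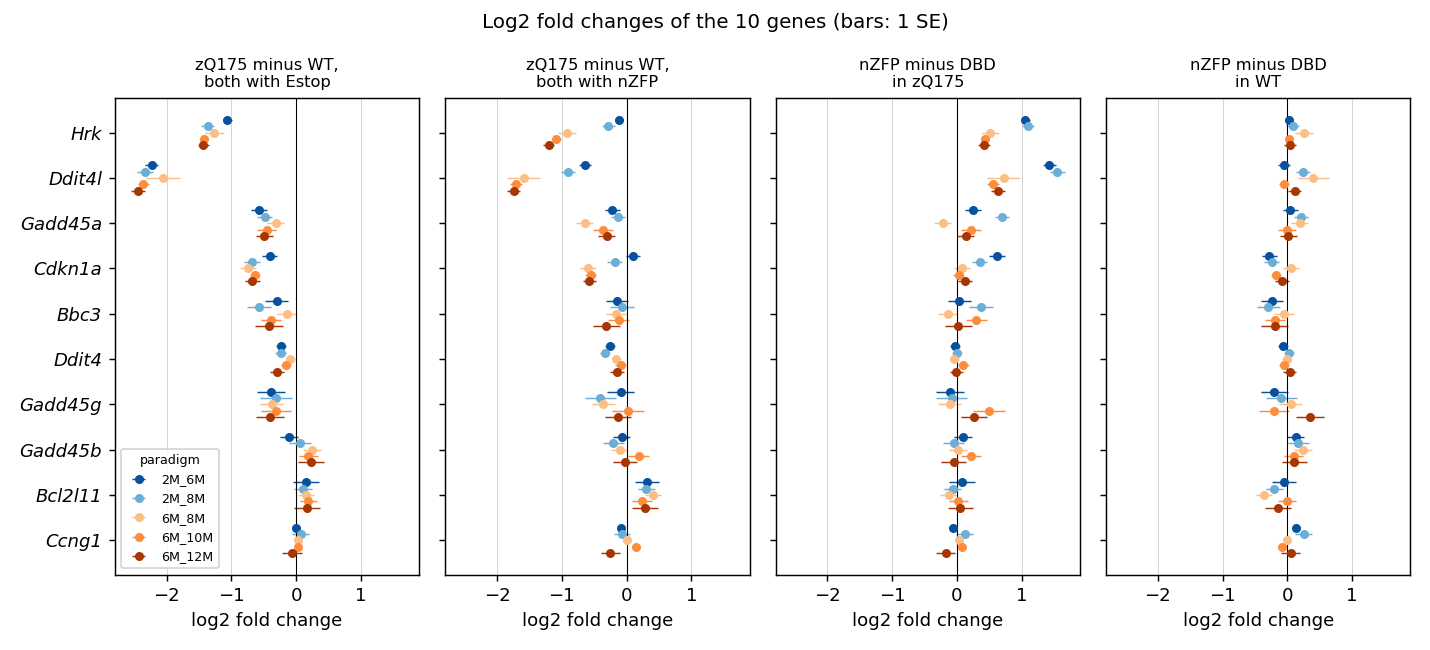
log2 fold change with 1 SE of the 10 genes in the 5 paradigms for genotype under Estop, genotype under nZFP, nZFP against DBD in zQ175 and nZFP against DBD in WT. Under Estop, Hrk and Ddit4l lie furthest from 0 of the 10 genes in every paradigm, and Cdkn1a is below 0 there in all 5 paradigms.

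The other BH3-only genes differed less than Hrk. Bbc3 was lower in zQ175 Estop than in WT Estop in all paradigms, at -0.30, -0.58, -0.14, -0.39 and -0.43, of which only 2M_8M passed (SE 0.19, edgeR adjusted p = 0.023). There its CPM was 3.35, 5.66 and 7.66 in WT Estop and 2.27, 4.01 and 5.16 in zQ175 Estop, with overlap. Under DBD it passed in 2M_8M at -0.74 (0.18) and in 6M_10M at -0.61 (0.15). Bcl2l11, at group medians of 1.86 to 3.00 CPM, had positive values in every paradigm under all 3 viruses. One of its 15 genotype comparisons passed, under nZFP in 6M_8M at 0.41 (0.13, adjusted p = 0.020), and without the libraries against their labels the value was 0.43 (0.13, adjusted p = 0.016). The same call was lost in a fit of all 30 groups (adjusted p = 0.063). The zQ175 nZFP libraries there were at 2.18, 3.00 and 3.30 CPM and the WT nZFP libraries at 1.42, 2.29 and 2.49 CPM.

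Ddit4, the paralogue of Ddit4l, moved little. In 2M_6M it was at 34.2, 37.4 and 43.2 CPM in WT Estop and 27.6, 31.7 and 37.1 CPM in zQ175 Estop. The log2 fold change under Estop was -0.23 (SE 0.08), -0.24 (0.08), -0.09 (0.07), -0.16 (0.08) and -0.30 (0.10). It passed the test in 2M_6M (edgeR adjusted p = 0.029), 2M_8M (0.035) and 6M_12M (0.041). Under DBD it passed in 2M_6M at -0.30, 2M_8M at -0.31 and 6M_10M at -0.24, and under nZFP in 2M_8M at -0.34. Its difference between nZFP and DBD in zQ175 lay between -0.04 and 0.10 (SE 0.07 to 0.10). Ccng1 passed no test for genotype, and its log2 fold changes under Estop lay between -0.07 and 0.07.

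Counted together, 23 of 50 combinations of gene and paradigm passed for genotype under Estop, all of them lower in zQ175. Over all genes 18.3% passed in either direction and 8.89% were lower. Hrk and Ddit4l made up 5 each of the 23 and Gadd45a 4, and these 3 genes were chosen by their response to nZFP. Of the 7 genes added by their role, Cdkn1a passed in 5 paradigms, Ddit4 in 3, Bbc3 in 1 and the rest in 0. The median log2 fold change over the 50, which include the 3 chosen genes, was -0.35, against 0.01 over all genes. For the 7 genes tested under DBD, 11 of 35 combinations passed, all lower (19.8% of all genes passed, 9.48% lower), and under nZFP 5 of 35 passed, 4 lower and 1 higher (12.3% of all genes). For the interaction 2 of 35 passed, both Cdkn1a (1.06% of all genes). For DBD against Estop 1 of 35 passed in zQ175 (1.05% of all genes). In WT, edgeR and DESeq2 called 0 of 50 (0.266% of all genes), with 6 at an unadjusted p under 0.05. Ddit4l was lower under DBD in all 5 paradigms of WT, at -0.33 to -0.12. It passed in 6M_10M without the outlying libraries at -0.27 (edgeR adjusted p = 0.001). With the length index as a covariate it passed in 6M_10M at -0.23 (adjusted p = 0.0035) and in 6M_12M at -0.32 (adjusted p = 0.015). Sex gave 1 call of 50 (0.746% of all genes): Cdkn1a was lower in males of 6M_10M by a log2 value of -0.20 (SE 0.04, edgeR adjusted p = 0.016).

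The wider p53 list, 28 genes without the members, had calls in both directions with genotype and few with nZFP. For genotype under Estop, 14 of 140 combinations were higher and 9 lower (median 0.03), a smaller share than the 18.3% over all genes. For this and the next lists, the shares over all genes for genotype under Estop are 18.3% in either direction and 8.89% lower. For nZFP against DBD they are 6.49% in zQ175 and 0.911% in WT. Eda2r, a receptor induced by p53, was higher in zQ175 at 0.68, 0.90, 0.64, 0.80 and 0.64, past the threshold in all but 6M_8M. Rrm2b, a ribonucleotide reductase subunit used in DNA repair, was higher at 0.35, 0.43, 0.31, 0.29 and 0.27, past the threshold in all but 6M_12M. Plk2, a polo-like kinase of neurons, was lower at -0.20, -0.31, -0.26, -0.40 and -0.51, past the threshold in all but 2M_6M. For nZFP against DBD, 2 were higher and 3 lower in zQ175, and 0 were higher and 2 lower in WT.

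Among 27 mTOR pathway genes, 9 of 135 combinations were higher and 12 lower for genotype under Estop, again a share below the 18.3% over all genes. Rragd, one of the Rag GTPases that bring mTORC1 to the lysosome, was lower in all 5 paradigms at -0.28, -0.38, -0.30, -0.42 and -0.45 (SE 0.05 to 0.07). Ulk1, the autophagy kinase that mTORC1 inhibits, was higher at 0.26, 0.20, 0.21, 0.19 and 0.36, past the threshold in all but 2M_8M. Rragb passed in 2M_6M at 0.22 and in 6M_10M at 0.14. For nZFP against DBD 4 were higher and 3 lower in zQ175, and 0 higher and 2 lower in WT.

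In the rest of the BCL2 family, 7 of 65 combinations were higher and 6 lower for genotype under Estop (18.3% of all genes passed). Bid, a BH3-only protein activated by caspase cleavage, was higher in zQ175 in all 5 paradigms at 0.78, 0.62, 0.54, 0.77 and 0.74 (SE 0.12 to 0.14). Bcl2, the founding pro-survival member, was lower at -0.63, -0.38, -0.39, -0.51 and -0.49, past the threshold in all but 2M_8M. Bnip3, a mitophagy receptor, passed in 2M_6M at -0.28 and in 6M_12M at -0.41. For nZFP against DBD in zQ175, 1 of 65 was higher and 1 lower. Caspase pathway genes had 5 of 65 higher and 0 lower with genotype, a smaller share than the 18.3% over all genes. The apoptosome scaffold Apaf1 was among them in 2M_6M at 0.41 and 6M_12M at 0.29. For nZFP in zQ175, 0 of 65 were higher and 2 lower.

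Of the integrated stress response list, 13 of 75 combinations were higher and 15 lower for genotype under Estop (18.3% of all genes passed). Trib3, a pseudokinase induced by ATF4 and CHOP, was lower in zQ175 in all 5 paradigms at -0.91, -1.31, -0.65, -0.94 and -1.02 (SE 0.17 to 0.26). Shmt2, a mitochondrial enzyme of serine metabolism, was higher in all 5 at 0.39, 0.40, 0.36, 0.43 and 0.48, and Psat1 of serine synthesis passed in 6M_8M at 0.33 and in 6M_10M at 0.25. For nZFP against DBD in zQ175, 2 of 75 were higher and 4 lower, among them Mthfd2, a mitochondrial folate enzyme, at -0.33 in 2M_6M (edgeR adjusted p = 0.0038) and -0.34 in 2M_8M (0.0062). With the mouse as a block the values were -0.23 (adjusted p = 0.26) and -0.29 (adjusted p = 0.020).

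Of the MAP kinase genes linked to Gadd45 proteins, 5 of 60 combinations were higher and 5 lower with genotype under Estop. Over all genes 18.3% passed in either direction. Map2k3, a kinase that activates p38, was higher in zQ175 in all 5 paradigms at 0.42, 0.35, 0.30, 0.52 and 0.33. For nZFP against DBD in zQ175 it was lower in 2M_6M at -0.35 (SE 0.12, edgeR adjusted p = 0.033) and in 2M_8M at -0.36 (0.11, 0.031), which became -0.21 (adjusted p = 0.56) and -0.27 (adjusted p = 0.062) with the mouse as a block. Jun was lower with genotype at -0.41, -0.29 and -0.22 in 2M_6M, 2M_8M and 6M_8M, and Mapk14 (p38 alpha) at -0.20 in 2M_8M and -0.23 in 6M_10M. The glucocorticoid-responsive genes had 0 of 55 higher and 14 lower with genotype (median -0.15), where 8.89% of all genes were lower. The 14 included Sgk1 in 4 paradigms (-0.29, -0.30, -0.27 and -0.38 from 2M_8M on). They also included Mt1 in 2M_8M at -0.41 and in 6M_12M at -0.60, and Per1 in 6M_8M at -0.77 and in 6M_10M at -0.66. For nZFP in zQ175, 0 of these 55 were higher and 1 lower.

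Over the 7 lists together, counting a gene of several lists once, 110 of 565 combinations passed for genotype under Estop (51 higher, 59 lower), 23 for nZFP against DBD in zQ175 (10 higher, 13 lower) and 4 in WT (1 higher, 3 lower). Over all genes 18.3%, 6.49% and 0.911% of combinations passed in these comparisons, so the lists' shares are near the background for genotype and below it for nZFP. With the mouse as a block, 7 passed in zQ175 (4 higher, 3 lower) and 0 in WT, and the shares over all genes in that fit are not given here. The 4 in WT were chosen for mention after their values were seen. Sesn2, an mTORC1 inhibitor of the sestrin family, was lower in 2M_8M at -0.42 (SE 0.10, edgeR adjusted p = 0.020) in WT and at -0.37 (0.10, 0.014) in zQ175. Ddit3 (CHOP) was higher there at 0.28 (0.07, 0.024) in WT and 0.23 (0.07, 0.034) in zQ175. Sesn3 was lower in WT 2M_8M at -0.56 and Trp53inp1 in WT 6M_8M at -0.33. In 2M_8M the length balance of the libraries also differed between the viruses, with group medians of 0.22 under DBD and -0.27 under nZFP in WT and 0.375 and -0.098 in zQ175. This applies to all comparisons of nZFP with DBD in 2M_8M, those of the 10 genes included. In zQ175, with the balance as a covariate, Hrk was at 1.07 (SE 0.10) there. The 2M_8M values of Ddit4, Gadd45b, Gadd45g, Bcl2l11 and Ccng1, which have no test, changed sign. With that balance as a covariate, Sesn2 in WT was at -0.24 (adjusted p = 0.095) and Ddit3 at 0.20 (adjusted p = 0.071).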

How the data were processed

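Striatal RNA of 233 libraries was sequenced as stranded mRNA, and the authors deposited expected counts per gene from RSEM on GRCm38, per the submitters' processing notes, without versions. The annotation release is not given in the sources used here. Expected counts divide reads between transcripts, and 90.4% were whole numbers within 1e-06. The table holds 41135 entries, 6 for vector sequences (at most 0.673% of a library), which stayed out of library sizes and tests. A second deposited table is named FPKM, but each of its columns sums to 1000000, so its values were taken as TPM (shares of 1000000 transcripts) and used to set genes side by side. Each library's group came from its label.

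After rounding, expected counts entered the robust quasi-likelihood F-test of edgeR 4.0.16 (R 4.3.3) with TMM scaling, filterByExpr on the groups and a sex covariate, 1 fit for the 6 groups of a paradigm, Benjamini-Hochberg adjustment over the 15673, 15786, 16000, 15840 and 15523 genes tested, threshold 0.05. Levels are edgeR CPM scaled over all libraries, and log2 levels add 0.5. The members and gene lists were chosen with earlier results of these data known. Hrk, Ddit4l and Gadd45a were tested only in comparisons without zQ175 DBD or zQ175 nZFP libraries and for sex. Named list genes are, per list and comparison, up to 3 with the smallest geometric mean p among those called in 2 or more paradigms. One gene named by this rule is not reported here.

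Libraries went against their label where repressor reads fell on the wrong side of 50 CPM or WPRE reads on the wrong side of 120 CPM. The length index is the mean log2 level of the longest 20% of expressed genes less that of the shortest 20%, relative to the paradigm, and libraries over 6 robust SD from their group median were called outlying. All 3 thresholds were set after the values had been seen, the WPRE one raised so that 1 further library was kept. Alternatives were no filter, no sex covariate, DESeq2 1.42.0 and its size factors, the length index as a covariate, 1 fit of all groups, blocks for replicate number or mouse, and leaving libraries out. The labels tie libraries to mice: hemispheres of 1 mouse deviated together (median r 0.264, 0.558, 0.313, 0.246 and 0.653 by paradigm), so the fit with mouse as a block is the paired one. No 2 libraries were identical. The fitting code was tested on simulated data. Promoter windows are from RefSeq and gene positions from GENCODE.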

Additional observations from a re-analysis of the deposited data

Results flagged for a closer look

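Single libraries were flagged where they lay far from the rest of their group by Dixon's test, in 26 of the 300 combinations of gene and group; chance flags about 1 in 20. The library labelled zQ175 nZFP replicate 5 of 6M_8M, which lacked repressor reads, was high at 61.4 CPM of Hrk and 31.1 CPM of Ddit4l, and the library labelled WT DBD replicate 6 of 2M_6M was high at 21.2 CPM of Cdkn1a. The 3 libraries of unusual length balance held 8 flags, all high. WT DBD replicate 2 of 6M_10M was at 49.3 CPM of Ddit4l, 10.0 CPM of Gadd45a (9.996) and 33.0 CPM of Gadd45g. zQ175 nZFP replicate 2 of 6M_10M was at 13.5 CPM of Ddit4l, 8.15 CPM of Gadd45a and 21.4 CPM of Gadd45g. zQ175 DBD replicate 3 of 2M_6M was at 6.40 CPM of Gadd45a and 25.4 CPM of Gadd45g. The part of RNA quality in these values was not tested.

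For Hrk, WT Estop replicate 2 of 2M_6M was high at 82.7 CPM and zQ175 DBD replicate 2 of 6M_12M at 33.0 CPM. For Ddit4l, WT Estop replicate 7 and WT nZFP replicate 8 of 2M_6M were high at 55.6 and 40.8 CPM, and zQ175 Estop replicate 6 of 2M_8M was low at 6.20 CPM. Ddit4 was high at 41.5 CPM in zQ175 Estop replicate 7 of 6M_10M, and Gadd45a at 4.78 CPM in zQ175 DBD replicate 6 of 2M_8M. WT nZFP replicate 6 of 2M_8M was high for both Gadd45b (14.0 CPM) and Bbc3 (7.36 CPM). Gadd45g was high in WT nZFP replicate 8 of 6M_12M at 11.8 CPM and in zQ175 Estop replicate 1 of 2M_8M at 10.8 CPM. Cdkn1a was high in WT Estop replicate 3 of 2M_6M at 18.4 CPM and in WT Estop replicate 5 of 6M_8M at 21.7 CPM. Bcl2l11 was high at 3.66 CPM in WT nZFP replicate 5 of 6M_10M and low at 1.42 CPM in WT nZFP replicate 8 of 6M_8M.

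The response of Cdkn1a to nZFP differed between the genotypes by the interaction test, by a log2 value of 0.90 in 2M_6M and 0.59 in 2M_8M. The 2M_6M value was smaller without the library against its label. The 2M_8M call was lost with no filter on low counts or without the sex covariate. This test was not run with the mouse as a block, although hemispheres of 1 mouse deviated together.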

How the results depend on the processing

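Of 3435 values with a test recomputed under an alternative, 134 changed sign, none of them past the threshold in either fit (largest original log2 value 0.27), 15 lost and 51 gained a call. Of 1055 values without a test 36 changed sign. Leaving out libraries applied only to the paradigms that hold them. Shares over all genes under the alternatives are not given here. For genotype under nZFP, 9 combinations in place of 5 passed with the length index as a covariate. For nZFP against Estop in zQ175, where 0 passed, the count was 1 without the libraries against their labels, 2 without outlying libraries, 2 with the length index, 1 with the replicate block, 4 with mouse as the block and 1 in DESeq2. For nZFP against Estop in WT, in place of 0, it was 1 without outlying libraries, 1 with the length index and 1 with mouse as the block. For DBD against Estop in zQ175, in place of 1, it was 0 with no filter, no sex covariate, without the libraries against their labels or in 1 fit of all groups, and 2 with the length index or mouse as the block; in WT, in place of 0, it was 2 without outlying libraries, 4 with the length index and 1 with mouse as the block. The interaction gave 1 in place of 2 with no filter or no sex covariate, and sex 2 in place of 1 with the length index or in DESeq2.

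The related lists had 184 calls in place of 110 for genotype under Estop with the length index. The share over all genes with that covariate is not given here, so this count cannot be set against the share of the main fit. For nZFP in zQ175 they had 15 in place of 23 with no filter, 37 with the replicate block and 7 with mouse as the block. In WT they had 2 in place of 4 with the length index, 0 with mouse as the block and 8 in DESeq2. The ratio of the highest to the lowest group median, from CPM and from TPM, was 1.31 and 1.59 for Ddit4, 2.60 and 2.25 for Cdkn1a, and 1.61 and 1.95 for Bcl2l11. The replicate block ended 1 call on the 10 genes other than that of Gadd45b, Ddit4 for genotype under Estop in 2M_6M (adjusted p = 0.054). Libraries with the same replicate number but from other mice correlated at medians of 0.00924, 0.0812, 0.00604, 0.0817 and 0.587 by paradigm. The mouse block was run for comparisons between viruses only. Beyond the values given with it in the text, it changed no call on the 10 genes. The causes of these changes were not tested. For Bcl2l11, at group medians of 1.86 to 3.00 CPM, small differences may not be detectable at this depth.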
